A study of Rattus norvegicus with 28 samples.

Results

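The genes described here are the protein-coding genes of the rat whose symbol is Zfp followed by a digit and which held at least 5 RPM in all 28 libraries. RPM are reads per 1000000 reads assigned to genes. The rule kept 204 of 278 protein-coding Zfp genes, in a table of 39538 genes, and 74 fell below the minimum. Members were chosen by their measured RPM, so a level of 5 RPM or more is a description of these genes and no finding. Just inside it stood Zfp865, with 5.18 RPM in its lowest library, Zfp418 with 5.21 and Zfp167 with 5.33. Just outside stood Zfp617 with 4.97 RPM, Zfp697 with 4.88 and Zfp641 with 4.82.

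RNA was sequenced from the striatum of male rats that model DYT-TOR1A dystonia, an inherited dystonia in which torsinA lacks a glutamic acid. The 4 groups were 6 libraries of transgenic (TG) rats with the genotype ΔETorA after sciatic nerve crush, 8 of naive TG rats, 6 of wild-type (wt) rats after crush and 8 of naive wt rats. The crush was made on the right side, and the labels give 12 weeks after injury for all 28 libraries, naive ones included. The study asked which genes and pathways of the striatum differ between these rats. The sources used here do not give the transgene's promoter or the cells it drives.

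Zinc fingers are small protein folds held by a zinc ion. In most proteins of this family, rows of C2H2 fingers read DNA, and many also carry a KRAB domain, which recruits Trim28 and Setdb1 to form heterochromatin and is best known for silencing transposons. The symbol Zfp covers other proteins as well, among them CCCH proteins that bind mRNA, ribosome factors and cofactors without a KRAB domain. In the striatum, Zfp503 is known from mouse as a factor of the developing spiny projection neurons, the main cell type there.

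Each library held 29151455 to 38407359 reads assigned to genes, so 3 reads came to at most 0.103 RPM. The human TOR1A transcript stood at 102 to 144 RPM in the TG libraries and at 0.972 RPM or less in the wt libraries. All 16 spiny projection neuron markers were present in every library, and their summed level was 8013 to 15166 RPM in TG crush, 8158 to 14057 in TG naive, 13089 to 15291 in wt crush and 7344 to 14947 in wt naive rats. The 7 cortical excitatory markers summed to 49.6 to 178 RPM over all libraries. Slc17a7, the transporter of cortical glutamatergic neurons, was above 20 RPM in 5 libraries (TG crush 220, TG naive 190 and wt naive 197, 199 and 202). The tissue is bulk, so fewer cells of a type and less RNA per cell cannot be told apart.

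Among the genes that passed in a comparison Zfp180 had the largest changes, and its promoter is printed first. With it stand Zfp580, the other gene whose fall in TG rats after crush passed with each library left out in turn, and Zfp386, which had the largest rise after crush that passed among the 204 genes. The sequences are those of RefSeq on GRCr8, from 250 bases before to 50 bases after the annotated start, 5′ to 3′ on the gene's strand. Capitals mark matches, on either strand, to the GC box GGGCGG, the ETS core CCGGAAG, the CCAAT box CCAAT, the TATA box TATAAA, the E box CACGTG and the Zfp143 (Staf) element, which Zfp143 is known to bind and whose letters are the reverse complement of bases 219 to 229 of the Zfp180 window.
Zfp180 (chr1:88780092-88780391, plus strand): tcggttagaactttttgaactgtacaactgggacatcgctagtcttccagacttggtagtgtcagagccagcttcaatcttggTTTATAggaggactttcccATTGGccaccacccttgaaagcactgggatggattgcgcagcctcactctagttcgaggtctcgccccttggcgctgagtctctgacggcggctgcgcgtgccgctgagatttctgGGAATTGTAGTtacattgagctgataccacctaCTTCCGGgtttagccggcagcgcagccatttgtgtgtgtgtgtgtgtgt
Zfp580 (chr1:77818078-77818377, minus strand): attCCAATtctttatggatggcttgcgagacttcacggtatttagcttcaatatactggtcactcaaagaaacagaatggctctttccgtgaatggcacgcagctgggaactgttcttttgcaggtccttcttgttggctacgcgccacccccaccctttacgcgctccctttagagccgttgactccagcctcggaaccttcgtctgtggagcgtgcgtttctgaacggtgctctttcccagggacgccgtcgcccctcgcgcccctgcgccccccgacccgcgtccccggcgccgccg
Zfp386 (chr6:143109358-143109657, plus strand): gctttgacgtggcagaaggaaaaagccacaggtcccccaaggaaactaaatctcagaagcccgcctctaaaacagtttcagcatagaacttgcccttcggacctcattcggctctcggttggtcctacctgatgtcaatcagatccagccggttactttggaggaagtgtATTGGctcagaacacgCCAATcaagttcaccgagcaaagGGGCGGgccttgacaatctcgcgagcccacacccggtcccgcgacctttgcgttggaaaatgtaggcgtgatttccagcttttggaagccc

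In the Zfp180 window the Zfp143 element was followed by an ETS core, also reversed, at bases 252 to 258. A reversed TATA box lay at bases 84 to 89 and a reversed CCAAT box at bases 103 to 107. The Zfp580 window held 1 CCAAT box, at bases 4 to 8, and the Zfp386 window held a GC box at bases 210 to 215 and a CCAAT box on each strand. RefSeq promoters were matched for 167 of the 204 genes. The full Zfp143 element stood in 3 of them (1.80%), those of Zfp180, Zfp1 and Zfp692, and in 0.623% of the promoters of tested genes. The ETS core stood in 33 (19.8%) of the Zfp promoters and in 15.6% of those of tested genes. The GC box stood in 81 (48.5%) against 58.0%, the CCAAT box in 65 (38.9%) against 37.0%, the E box in 12 (7.19%) against 9.01% and the TATA box in 15 (8.98%) against 7.46%. The median GC content of the windows was 57.3% in Zfp promoters and 60.0% in those of tested genes. These are counts of letters and say nothing of binding. Zfp143 itself is 1 of the 204 genes and averaged 9.11 ± 1.29 RPM in TG crush (SD, n = 6), 9.64 ± 0.594 in TG naive (SD, n = 8), 9.93 ± 0.58 in wt crush (SD, n = 6) and 9.79 ± 0.78 in wt naive rats (SD, n = 8). It passed in none of the 6 contrasts.

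Most Zfp genes held few reads. The median gene averaged 15.8 RPM, 44 averaged under 10 RPM and 4 averaged over 100. Together they took 0.597% ± 0.0257 of assigned reads in TG crush (SD, n = 6), 0.601% ± 0.0127 in TG naive (SD, n = 8), 0.602% ± 0.0130 in wt crush (SD, n = 6) and 0.593% ± 0.0132 in wt naive rats (SD, n = 8). The 4 means lay within 1 SD of each other. The most reads went to Zfp106, an RNA-binding protein, at 508 RPM over all libraries, then to Zfp365, which binds Disc1, at 355 RPM, and to Zfp180 at 278 RPM. Zfp180 alone held 4.64% of the reads of the 204 genes.

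RPM is not corrected for length, and the spans of these genes, introns included, ran over 1.465 to 1048 kb with a median of 18.4 kb. Per kilobase of span, in the deposited RPKM, Zfp365 stood highest at 15, with Zfp180 at 14.4 and Zfp106 at 10.1. The lowest was Zfp385d, at 0.0169 RPKM for 17.7 RPM over the longest span. Chromosome 1 held 52 of the genes (25.5%), where it holds 13.8% of all protein-coding genes of the table, and chromosome 10 held 19. Zinc finger genes with near-identical copies can share reads, and the sources used here do not say how such reads were assigned, so single paralogues are uncertain.

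Naive TG rats had more Zfp180 RNA than naive wt rats, and Zfp180 was the 1 Zfp gene of 204 that passed in this comparison, where 0.0329% of all genes were called. It lies on chromosome 1 (80920745 to 80940038, plus strand, Rnor_6.0), and its human counterpart is a KRAB zinc finger protein. The lowest, median and highest values were 277, 340 and 354 RPM in TG naive rats, against 228, 266 and 314 RPM in wt naive rats. In 6 of the 8 TG naive libraries the level was above the highest wt naive library, and TG naive 188 and 193 lay within the wt range. The means were 329 ± 27.3 RPM in TG naive and 267 ± 25.1 RPM in wt naive rats (SD, n = 8 each).

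On the log2(RPM + 0.5) scale, Zfp180 was higher by 0.30 (SE 0.06, limma adjusted p = 0.0477) in TG naive rats. The two-sided exact permutation test over the 16 libraries gave p = 0.0014, where the smallest value it can give is 0.000155. Zfp180 was picked out with this result already known, so these values describe it and are no independent evidence. The limma call sat at the threshold: it was lost when any of 23 of the 28 libraries was left out, with an adjusted p of 0.00747 to 0.172 over the 28 fits. It was also lost with limma-voom (adjusted p = 0.0558) and without the 5 libraries high in Slc17a7 (log2 change 0.28, adjusted p = 0.174). The log2 change itself stayed between 0.27 and 0.33 in the leave-one-out fits.

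**Figure D1:**
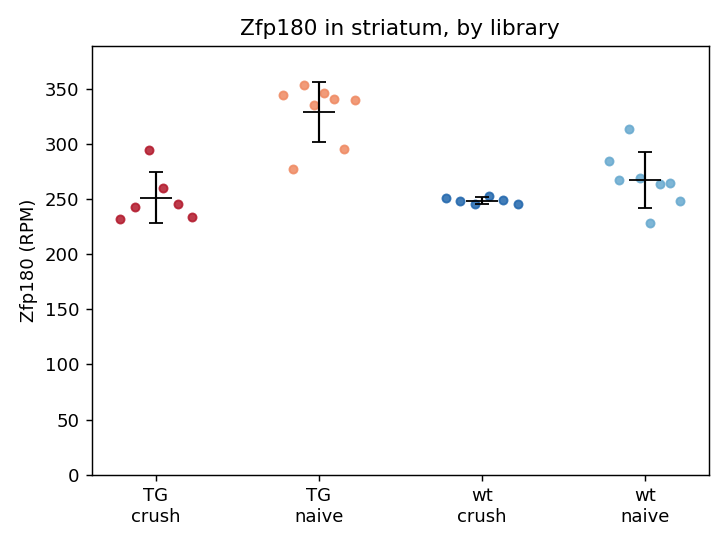
Zfp180 in RPM (vertical axis) in each library of the 4 groups, with the mean and SD of each group in black. The TG naive libraries average 329 RPM, and the other 3 groups average 249 to 267 RPM.

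After nerve crush Zfp180 did not separate the genotypes. It had 232, 244 and 295 RPM (lowest, median and highest) in TG crush rats, against 245, 249 and 253 RPM in wt crush rats. The wt crush libraries lay close together, and of the 6 TG crush libraries 3 lay below their range, 1 within it and 2 above it. The means were 251 ± 23.4 RPM in TG crush and 249 ± 2.98 RPM in wt crush rats (SD, n = 6 each). The log2 change was 0.01 (exact two-sided permutation p = 0.903, smallest possible 0.00216).

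Within TG rats Zfp180 fell after crush, by 0.39 on the log2 scale (SE 0.06, limma adjusted p = 0.000568). With the values above, 5 of the 6 TG crush libraries lay below the lowest TG naive library, and TG crush 220, at 295 RPM, lay within the naive range. That library is 1 of the 5 high in Slc17a7. Without those 5 libraries the change was -0.43 (adjusted p = 4.33e-05), and over the 28 leave-one-out fits the adjusted p was 9.27e-05 to 0.00266. In wt rats the same contrast gave -0.10 (SE 0.06, limma adjusted p = 0.355). The test of the difference between genotypes in the effect of crush gave -0.29 (SE 0.09, limma adjusted p = 0.437) and did not pass. The comparison of genotypes in naive rats and that of crush with naive in TG rats share the 8 TG naive libraries, where Zfp180 was highest.

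The neighbours of Zfp180 on chromosome 1 did not pass in these contrasts. Zfp112, 4.08 kb downstream and also a Zfp gene of the set, changed by 0.06 in TG naive against wt naive rats and by -0.07 in TG crush against TG naive rats. Znf235, 25.7 kb downstream, changed by 0.04 and -0.04. Ceacam20, 8.66 kb upstream on the same strand and at 1.37 RPM, changed by 0.21 (limma adjusted p = 0.995) and by -0.40 (adjusted p = 0.0502). Zfp111, 95.6 kb downstream, changed by -0.12 and 0.10. The 1 gene annotated across Zfp180, a pseudogene on the other strand, held 0.00332 RPM.

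No other Zfp gene passed between genotypes in naive rats in limma. The 204 log2 changes had a median of -0.02, against -0.01 for all 18222 genes tested, and 203 of them were below 0.2 in size. The 1 call is 0.490% of the Zfp genes. At an unadjusted p below 0.05 there were 2 Zfp genes (0.980%), where 4.98% of all genes passed. After Zfp180 the lowest p belonged to Zfp717 (-0.12), Zfp637 (0.08), Zfp319 (0.13) and Zfp11 (-0.12), with limma adjusted p of 0.98 to 0.999.

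In crush rats 0 of the 204 genes passed between TG and wt in limma, where 0.00549% of all genes were called, and voom gave 0 as well. At an unadjusted p below 0.05 there were 18 (8.82%), where 8.06% of all genes passed. The lowest p was that of Zfp386. It had 13.2, 16.2 and 17.8 RPM (lowest, median and highest) in TG crush rats, against 11.8, 13.2 and 13.8 RPM in wt crush rats. All but 1 of the TG crush libraries lay above the wt crush range, and the log2 change was 0.26 (SE 0.08, limma adjusted p = 0.544). Zfp347 (0.34), Zfp775 (0.17) and the ribosome maturation factor Zfp622 (-0.22) each had an adjusted p of 0.606, and Zfp367 (0.29) had 0.585. Averaged over the naive and crush arms, 0 Zfp genes passed and 6 (2.94%) had an unadjusted p below 0.05, where 0.0384% of all genes were called and 5.09% passed unadjusted.

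Sciatic nerve crush went with changes in 8 Zfp genes of TG rats, 3 higher and 5 lower than in naive TG rats, and 196 did not pass. The 8 are 3.92% of the set, where 3.08% of all genes tested were called, so the share is near that of all genes. By direction, 1.08% of all genes were called higher and 2.0% lower. At an unadjusted p below 0.05 there were 39 Zfp genes (19.1%), where 19.3% of all genes passed. The median change of the 204 was 0.02, against -0.01 over all genes tested, with 120 above 0 and 84 below.

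Mean marker levels of other cell types were also unequal between TG crush and TG naive rats. These differences were not tested, nor was their part in the changes of the Zfp genes. Each microglia, endothelium, pericyte, astrocyte, blood, spiny and oligodendrocyte marker found was above 0 in every library. On the mean log2 scale the 8 microglia markers stood at 5.18 ± 0.247 in TG crush and 5.35 ± 0.165 in TG naive rats (SD). Their sums were 317 to 483 RPM in TG crush and 343 to 475 in TG naive rats. The 6 endothelium and pericyte markers stood at 5.58 in TG crush and 5.75 in TG naive rats, with sums of 319.6 to 470.2 RPM in TG crush and 370.1 to 458 in TG naive rats. The 8 astrocyte markers stood at 8.35 ± 0.169 in TG crush and 8.45 ± 0.0910 in TG naive rats (SD). Their sums were 3908 to 5359 RPM in TG crush and 4423 to 5202 in TG naive rats. The 3 blood markers found, of 4 listed, ran the other way. They stood at 3.73 ± 0.377 in TG crush and 2.93 ± 0.883 in TG naive rats (SD). Their sums were 64.9 to 122 RPM in TG crush and 18.3 to 169 in TG naive rats. The ranges of the sums overlapped in all 4 lists. The spiny and oligodendrocyte markers stood closer together, at 8.66 and 10.30 in TG crush, against 8.67 and 10.29 in TG naive rats. Pituitary markers, some at 0 in single libraries, stood at 0.977 ± 1.11 in TG crush and 0.539 ± 0.709 in TG naive rats (SD). Choroid plexus markers stood at 1.32 ± 0.934 in TG crush and 1.48 ± 1.03 in TG naive rats (SD). Cortical excitatory markers stood at 2.30 ± 0.590 in TG crush and 2.21 ± 0.635 in TG naive rats (SD).

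**Figure D2:**
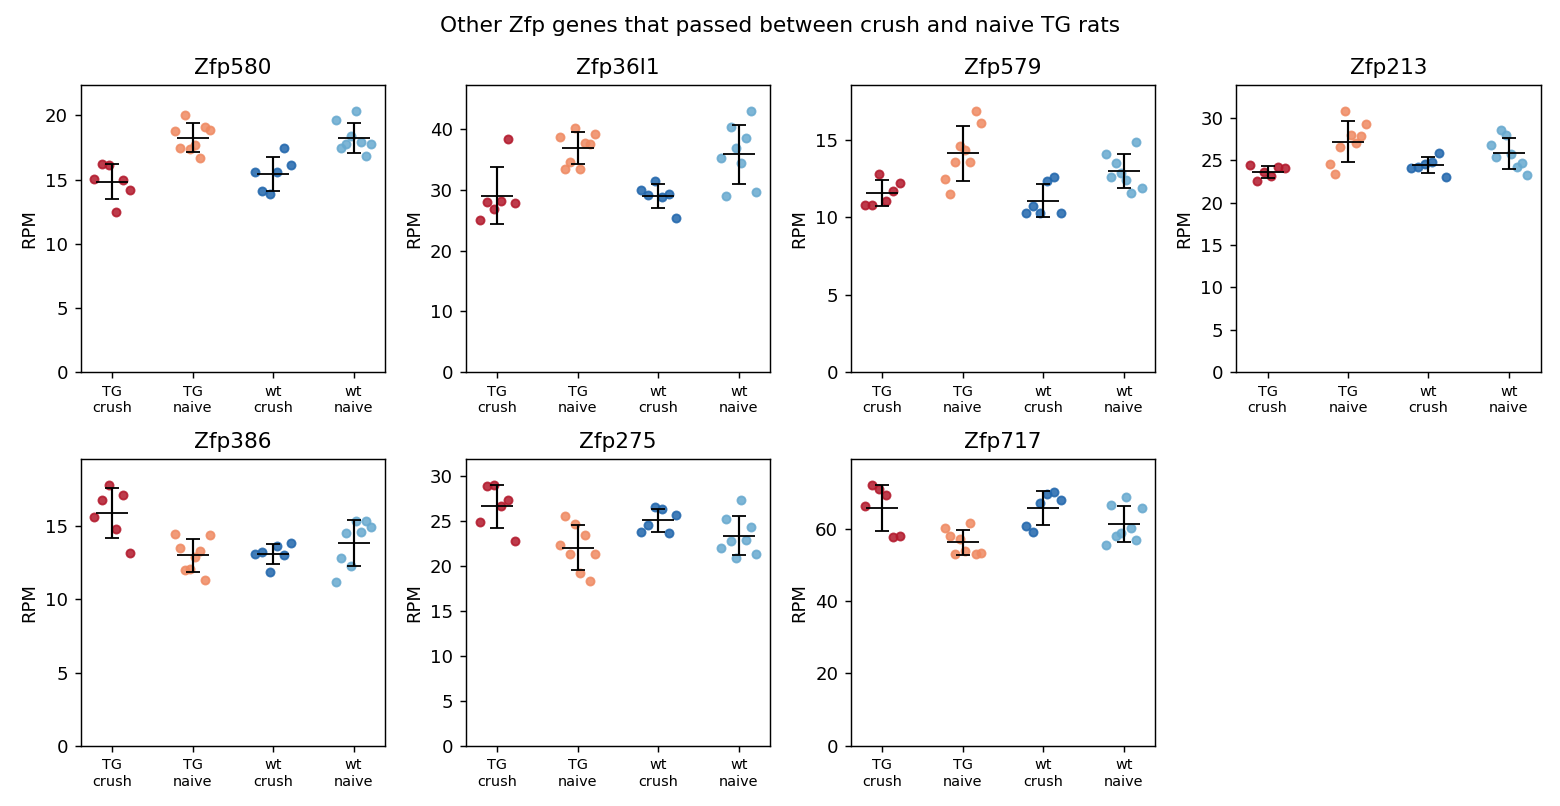
RPM (vertical axes) of the other 7 Zfp genes that passed between TG crush and TG naive rats, in each library of the 4 groups, with the mean and SD of each group in black. In Zfp580 the 6 TG crush libraries lie below all 8 TG naive libraries.

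Among the genes that fell, Zfp580 (chromosome 1, 72338468 to 72340636, minus strand) did so without overlap. It had 12.5, 15 and 16.2 RPM (lowest, median and highest) in TG crush rats, against 16.7, 18.2 and 20.1 RPM in TG naive rats. The change was -0.29 (SE 0.06, limma adjusted p = 0.00724). Zfp580 and Zfp180 kept an adjusted p below 0.05 in all 28 fits with 1 library left out. Zfp579 lies on the same stretch of chromosome 1 (72397887 to 72402329, plus strand) and fell by 0.27 (SE 0.07, limma adjusted p = 0.0406). It had 10.8, 11.4 and 12.8 RPM in TG crush rats, against 11.5, 14 and 16.9 RPM in TG naive rats, and the groups overlapped. Between Zfp580 and Zfp579 lie Zfp865, at -0.15 (adjusted p = 0.270), and Zfp524, named here for its position, at -0.04 (adjusted p = 0.824).

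Zfp36l1, a CCCH protein that binds AU-rich elements and sends mRNAs to decay, also fell in TG rats after crush. It lies on chromosome 6 (103308032 to 103313074, minus strand) and had 25, 27.9 and 38.4 RPM (lowest, median and highest) in TG crush rats, against 33.4, 37.7 and 40.2 RPM in TG naive rats. Of the 6 TG crush libraries 5 lay below all TG naive libraries, and TG crush 223 lay among them at 38.4 RPM. That library also had the lowest spiny projection neuron marker sum of its group, 8013 RPM. Its oligodendrocyte marker level was the highest of its group, at 10.88 on the log2 scale. Its mitochondrial share of reads, 18.5%, was the highest of all 28 libraries. The part of these in its Zfp36l1 level was not tested. The change was -0.35 (SE 0.08, limma adjusted p = 0.02), and with the spiny marker level as a covariate it was -0.35 (adjusted p = 0.00377). The other family members of this kind did not pass: Zfp36l2 changed by -0.11 and Zfp36 by 0.07. Of 16 subunits and decay partners of the CCR4-NOT deadenylase, through which Zfp36 proteins act, 0 passed in the limma fit for this contrast and 3 had an unadjusted p below 0.05, where 19.3% of all genes did, with a median of 0.05 against -0.01 over all genes.

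Zfp213, whose human counterpart carries SCAN and KRAB domains, lies on chromosome 10 (12885533 to 12892464, minus strand). It had 22.6, 23.9 and 24.4 RPM in TG crush rats, against 23.4, 27.5 and 30.8 RPM in TG naive rats. The lower end of the naive range overlapped the crush libraries, and the change was -0.19 (SE 0.05, limma adjusted p = 0.0429).

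The 3 Zfp genes that rose did so by smaller amounts than Zfp180 fell. Zfp386 (chromosome 6, 143901239 to 143915953, plus strand) had 13.2, 16.2 and 17.8 RPM in TG crush rats, against 11.3, 13.1 and 14.5 RPM in TG naive rats. Of the 6 TG crush libraries 5 lay above all TG naive libraries, and the change was 0.28 (SE 0.07, limma adjusted p = 0.0364). In wt rats Zfp386 changed by -0.07 (adjusted p = 0.581), and the difference between genotypes was 0.35 (adjusted p = 0.430).

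Zfp275 (chromosome X, 157457399 to 157474263, minus strand) had 22.9, 27.1 and 29.1 RPM in TG crush rats, against 18.4, 21.8 and 25.6 RPM in TG naive rats. Its groups overlapped, and the change was 0.27 (SE 0.07, limma adjusted p = 0.0317). Zfp717 (chromosome 8, 23275947 to 23311725, minus strand) had 57.7, 67.8 and 72.1 RPM in TG crush rats, against 53.0, 55.5 and 61.7 RPM in TG naive rats. Of the 6 TG crush libraries 4 lay above all TG naive libraries, and the change was 0.22 (SE 0.06, limma adjusted p = 0.0422).

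The count of 8 depended on single libraries. It was 2 to 5 when TG crush 214, 219, 220 or 222 or TG naive 189, 190, 191, 193 or 194 was left out, where 1.23% to 2.44% of all genes were called. It was 18 to 20 without TG crush 223, TG crush 226 or TG naive 188, where 5.93% to 6.68% of all genes were called. Without the 5 libraries high in Slc17a7 it was 2, Zfp180 and Zfp580 (0.993% of all genes), and with the spiny neuron marker level as a covariate it was 15, which held all 8 (6.45% of all genes). In these fits the count moved the same way as that over all genes.

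In wt rats 0 of the 204 genes passed between crush and naive in limma and in voom, where 0.159% of all genes were called. At an unadjusted p below 0.05 there were 33 (16.2%), where 20.8% of all genes passed. The 8 genes called in TG rats changed in wt rats by -0.29 (Zfp36l1), -0.24 (Zfp580), -0.22 (Zfp579), -0.10 (Zfp180), -0.08 (Zfp213), -0.07 (Zfp386), 0.10 (Zfp275) and 0.10 (Zfp717). The interaction of genotype and crush called 0 of the 204 genes in limma, with 13 (6.37%) at an unadjusted p below 0.05, where 0.00549% of all genes were called and 7.49% passed unadjusted. A difference between genotypes in the response to crush was therefore not shown for any of them.

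**Figure D3:**
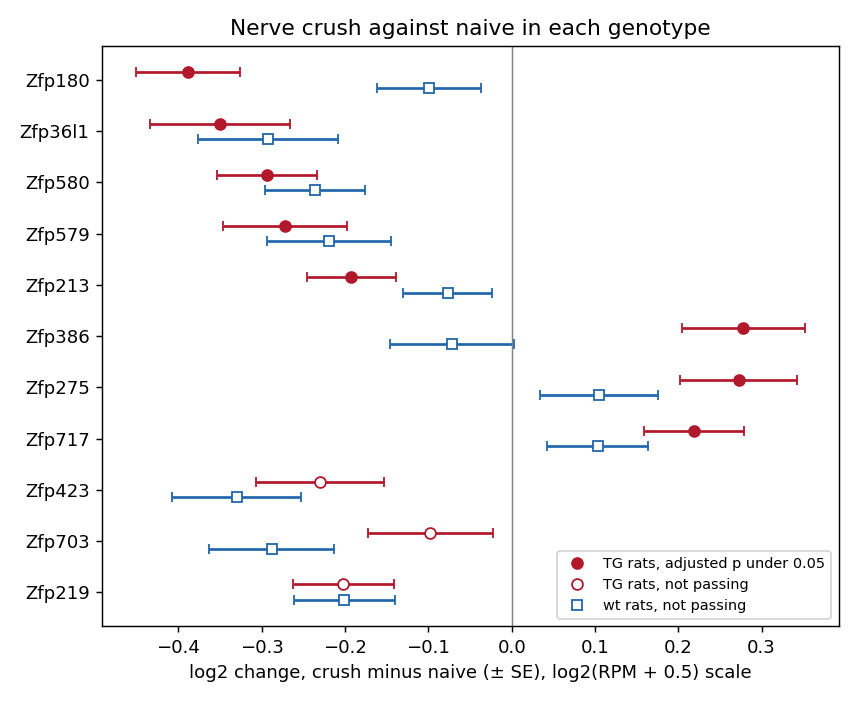
Log2 change between crush and naive rats (horizontal axis, with SE) for the 8 Zfp genes called in TG rats and 3 more named for their low p in wt rats, with TG as circles above wt as squares. For Zfp36l1, Zfp580 and Zfp579 the TG and wt changes differ by less than 1 SE.

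Of the 3 Zfp genes of lowest p in wt rats, Zfp423 and Zfp703 are genes of neural development and the other was Zfp580. Zfp423, a partner of EBF and SMAD factors that is known from mouse for its part in hindbrain development, had 16.9, 18.6 and 19.9 RPM (lowest, median and highest) in wt crush rats, against 20.7, 23.6 and 27.2 RPM in wt naive rats. The groups did not overlap, and the change was -0.33 (SE 0.08, limma adjusted p = 0.0598). Zfp703, a co-repressor of the same family as Zfp503, had 16.5, 19.0 and 20.4 RPM in wt crush rats, against 21.5, 23.0 and 24.8 RPM in wt naive rats. These groups did not overlap either, and the change was -0.29 (SE 0.07, limma adjusted p = 0.0827).

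Both genes passed when the 2 wt groups were fitted alone (adjusted p = 0.0420 for each). The wt crush libraries also had the higher and narrower spiny neuron marker level, a mean of 8.94 ± 0.0764 on the log2 scale (SD, n = 6), against 8.54 ± 0.407 in wt naive rats (SD, n = 8). Their astrocyte markers stood at 8.23 in wt crush and 8.43 in wt naive rats, and their microglia markers at 5.04 in wt crush and 5.30 in wt naive rats, and the part of these in the changes was not tested. With the spiny marker level as a covariate Zfp423 changed by -0.20 (adjusted p = 0.644) and Zfp703 by -0.24 (adjusted p = 0.681). Calls over all genes in this contrast also became fewer with the covariate, at 0.0439% against 0.159% without it. Zfp219, a partner of SOX9, changed by -0.20 in wt rats (adjusted p = 0.121) and by -0.20 in TG rats (adjusted p = 0.0606). It overlaps Arhgef40 and Tmem253 on the other strand, which held up to 36.2 RPM, and whether reads were counted by strand is not stated in the sources used here.

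By list, 15 Zfp genes of neural development and striatum gave 0 limma calls in all 6 contrasts. In wt rats after crush 7 of the 15 had an unadjusted p below 0.05, where 20.8% of all genes did, with a median change of 0.07 against -0.03 over all genes. They did not move one way: Zfp503 changed by 0.32, the transcription factor Zfp521 by 0.27, Zfp804a by 0.25, Zfp292 by 0.20, Zfp335 by -0.14, Zfp703 by -0.29 and Zfp423 by -0.33. Zfp503 had 16.7, 20.1 and 21.9 RPM in wt crush rats, against 12.1, 15.2 and 20.3 RPM in wt naive rats, and the groups overlapped (limma adjusted p = 0.144). The mean spiny marker level was 8.94 in wt crush and 8.54 in wt naive rats, as given above beside Zfp423 and Zfp703.

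Of 12 Zfp genes of RNA, ribosome and spindle, Zfp36l1 was the 1 that passed, in TG rats after crush, where 11 did not and 3.08% of all genes were called. Zfp385a, which binds RNA, changed by -0.21 there (limma adjusted p = 0.116), and the ribosome quality control ligase Zfp598 changed by 0.02. Of 11 general regulators and chromatin factors 0 passed in limma in any contrast. In TG rats after crush the SUMO ligase Zfp451 changed by 0.18 (adjusted p = 0.143) and Zfp644, a partner of the G9a and GLP methyltransferases, by -0.003. These lists gave 3, 2 and 1 genes at an unadjusted p below 0.05 in TG rats after crush, for RNA, neural and chromatin genes in that order, where 19.3% of all genes passed.

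Of 23 partners of KRAB proteins and heterochromatin factors, 1 passed in TG rats after crush, where 3.08% of all genes were called. Wiz, a zinc finger partner of the same methyltransferases, was lower in TG crush than in TG naive rats by 0.16 on the log2 scale (limma log2 change -0.16, SE 0.04, adjusted p = 0.0413). Trim28, the central partner of KRAB domains, changed by 0.01 in TG rats (adjusted p = 0.969) and by 0.05 in wt rats (adjusted p = 0.611) after crush. Among 61 tested Zfp genes below the 5 RPM minimum, 4 rose in TG rats after crush, Zfp945 (0.53), Zfp758 (0.50), Zfp709l1 (0.48) and Zfp52 (0.47), where 1.08% of all genes were called higher. They averaged 1.56 to 4.65 RPM. Of 38 Zbtb genes 1 fell, Zbtb4 (-0.17, limma adjusted p = 0.0135), and of 8 Znf, 12 Zscan or Zkscan and 24 Klf or Sp genes 0 passed in limma in that contrast, where 2.0% of all genes were called lower.

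**Figure D4:**
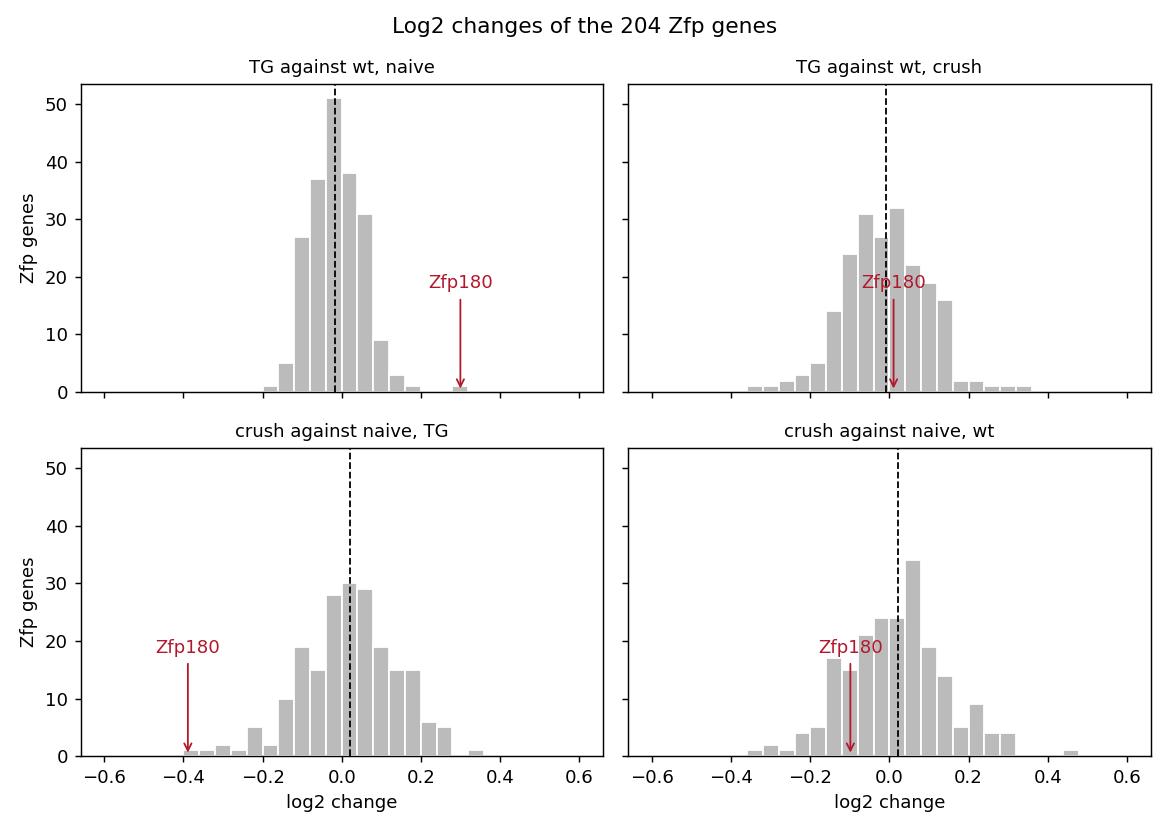
Log2 changes of the 204 Zfp genes (horizontal axis) as counts of genes (vertical axis) in 4 contrasts, with the median as a dashed line and Zfp180 marked. Zfp180 stands apart at 0.30 in the naive comparison of genotypes. After crush in TG rats it is the lowest, at -0.39, with Zfp36l1 near it, and the highest change is 0.35.

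The changes after crush in TG rats were also set against the span of the genes. The 68 shortest, under 13.2 kb of span, had a median change of -0.01, the middle 68 of 0.04 and the 68 longest, over 26.5 kb, of 0.05. Over all genes tested the medians in the same ranges were -0.05, -0.01 and 0.02. The Spearman correlation of span and change was 0.20 across the 204 genes and 0.21 across all genes, a description across genes that share libraries.

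Within groups, the median SD was 0.134 on the log2 scale over the 204 Zfp genes and 0.132 over 10828 other protein-coding genes at 5 RPM or more, which were not matched for level. The 10th and 90th percentiles were 0.0963 and 0.202 over the Zfp genes and 0.0840 and 0.238 over the other genes. The steadiest were Zfp592 (0.0675), a cofactor of ZMYND8 in human cells, Zfp444 (0.0692) and Zfp532 (0.0701). The most variable were Zfp385b (0.370), Zfp189 (0.316) and Zfp488 (0.312), followed by Zfp831 (0.296) and Zfp618 (0.279). None of these 5 passed in any contrast.

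The levels of the variable genes ran with or against the marker levels of their libraries. Zfp385b, of the same family of RNA-binding zinc finger proteins as Zfp385a, had 40.9, 63.3 and 93.5 RPM (lowest, median and highest) in TG crush, 46.5, 71.8 and 86.5 in TG naive, 78.4, 83.3 and 91.8 in wt crush and 41.4, 63.1 and 96.1 in wt naive rats. After each group's mean was taken off, its log2 level ran with the mean level of the 16 spiny projection neuron markers over the 28 libraries (Pearson r = 0.976, Spearman rho = 0.972). The permutation p was 1e-05 for both, the smallest that 100000 resamples can give (adjusted over 10 relations, 5e-05). Values were shuffled over all 28 libraries and not within groups. The groups differed in spread, with a spiny marker SD of 0.0764 in wt crush and 0.407 in wt naive rats. The permutation p-values here and below are therefore approximate. How many of all genes run as closely with these markers was not counted. Without the 2 libraries farthest from the median marker level r was 0.976. The largest change of Zfp385b between 2 groups was 0.46, in wt crush against wt naive rats (limma adjusted p = 0.176). It stood beside mean marker levels of 8.94 and 8.54, and with the marker level as a covariate it was -0.00478 (adjusted p = 0.995). Its interaction of genotype and crush was -0.52 (limma adjusted p = 0.658), and -0.0438 with the covariate.

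Zfp488, known from mouse as a factor of oligodendrocyte differentiation, had 8.94, 12.9 and 16.7 RPM in TG crush, 9.74, 12.3 and 15.5 in TG naive, 9.27, 10.9 and 15.4 in wt crush and 9.19, 13.2 and 23.4 in wt naive rats. Its highest library, wt naive 201, also had the highest sum of the 7 oligodendrocyte markers, 37998 RPM. With those markers r was 0.839 and rho 0.814 (permutation p = 1e-05 for both, adjusted 5e-05), and r was 0.748 without the 2 farthest libraries. With the spiny markers r was -0.670 and rho -0.663 (adjusted permutation p = 0.00022 and 0.0007).

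Zfp189, linked in mouse to the response of prefrontal neurons to stress, ran with the spiny markers at r = 0.651 and rho = 0.571 (adjusted permutation p = 0.00024 and 0.0039), and r was 0.533 without the 2 farthest libraries. Zfp831 gave r = 0.665 and rho = 0.542 with them (adjusted permutation p = 0.00022 and 0.0057, r = 0.563 without the 2 farthest libraries). Zfp618, which binds UHRF2 in human cells, ran the other way, at r = -0.590 and rho = -0.579 (adjusted permutation p = 0.001 and 0.0039, r = -0.679 without the 2 farthest libraries). With the oligodendrocyte markers, r and rho were -0.623 and -0.452 for Zfp385b, -0.603 and -0.486 for Zfp189, -0.693 and -0.455 for Zfp831 and 0.363 and 0.334 for Zfp618. The adjusted permutation p of these r were 0.00051, 0.001, 0.00032 and 0.057, and those of rho 0.019, 0.013, 0.019 and 0.082. Without the 2 libraries farthest from the median these r were -0.468, -0.327, -0.361 and 0.458. The values of 2 genes in 1 library share its composition, since RPM are shares of 1 total.

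**Figure D5:**
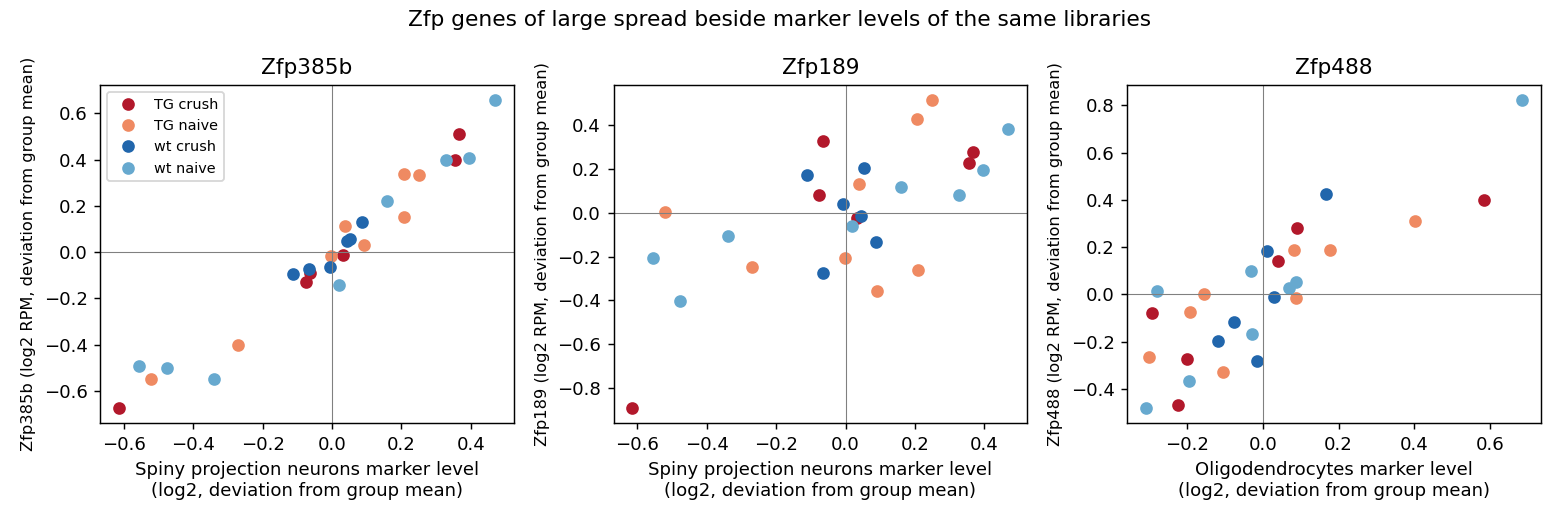
Log2 level of Zfp385b and Zfp189 against the spiny projection neuron marker level and of Zfp488 against the oligodendrocyte marker level, each as the deviation of a library from its group mean. The 28 libraries lie close to a line for Zfp385b (r = 0.976) and more loosely for Zfp488 (0.839) and Zfp189 (0.651).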

How the data were processed

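The authors deposited 1 table of RPKM values with decimal commas, per the file headers, which was recorded under the unit other because the unit check could not read the commas. Per the submitters' processing notes, STAR 2.6.1a, featureCounts of Subread 1.6.3, DESeq2 1.22.2 and Rnor_6.0 were used. RPKM was per gene span with introns, as checked on every gene. RPKM times span gave RPM, and 100% of values were whole reads within a tolerance of 0.02. The labels give single-end reads of 75 nt in 2 runs but not which library was in which, so no value within a run could be given, and they do not say that libraries of a group came from separate animals, so p-values cover only the spread among these samples, which may be technical.

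All 28 libraries entered 1 fit of log2(RPM + 0.5) on 4 groups (limma 3.58.1, R 4.3.3), for 18222 genes with at least 0.5 RPM in at least 6 libraries, with 6 contrasts and calls at a Benjamini-Hochberg adjusted p below 0.05 over all genes. RPM was used because a minimum on RPKM per span leaves 152 of the 204 genes. The fit was tested on simulated data. Permutation tests used scipy 1.17.1 in Python 3.11.15, and figures matplotlib 3.10.9. The floor of 3 reads covers counting error only.

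The genes and lists were chosen with earlier results of these data known. Named genes were called genes (up to 12 each way per contrast), the 5 of lowest p where fewer than 5 passed, Zfp180, up to 3 per list, and the extremes of reads, minimum and spread. Zfp831, Zfp618, Zfp36, Zfp36l2 and others named beside them were chosen after their values were seen, as were the 10 relations to marker levels. Protein sequences were not used here, so domains were not counted.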

Additional observations from a re-analysis of the deposited data

Results flagged for a closer look

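Of 36 groups of 6 or 8 libraries examined for a single library far from the rest, 2 held one, and chance gives about 1 in 20. Zfp36l1 stood at 38.4 RPM in TG crush 223, where the other 5 TG crush libraries held 25 to 28.1 RPM. The share of reads in the 204 Zfp genes was 0.578% in wt crush 203, where the other 5 wt crush libraries held 0.602% to 0.617%. Mitochondrial genes, whose reads are part of the total, took 15.9% of reads in wt crush 203. In the other 5 wt crush libraries they took 10.9% to 12.4%, so a low share need not be particular to Zfp genes. The cause of either was not tested.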

How the results depend on the processing

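No paired analysis was possible because no replicate number is shared between groups. The 1 Zfp gene called between naive TG and wt rats became 0 with no minimum, quantile normalization, voom, robust variances, the compared groups alone and without the 5 libraries high in Slc17a7 (0 to 1 with 1 library left out). The 8 called in TG rats after crush became 4 with no minimum, 25 with array weights, 2 with the compared groups alone, 15 with the spiny marker covariate and 2 without the 5 libraries (2 to 20 with 1 library left out), where 1.2%, 9.62%, 0.675%, 6.45% and 0.993% of all genes were called, against 3.08%. Median-of-ratios rescaling gave 10 (5 higher and 5 lower), where 3.18% of all genes were called. Quantile normalization gave 11 (6 higher and 5 lower), where 3.25% of all genes were called. The 0 called in wt rats after crush became 13 with array weights and 2 with the groups alone (0 to 6, with 6 without wt naive 196), where 7.88%, 0.247% and, without that library, 2.80% of all genes were called, against 0.159%. The other 3 counts stayed at 0 under every alternative run, and the groups alone could not be fitted for the mean of arms and the interaction. Zfp180 in TG against wt crush rats changed sign: its log2 change was -0.036 to 0.032 with 1 library left out (below 0 without TG crush 220 or 222) and -0.036 without the 5 libraries. In TG against wt naive rats its change kept its sign, at 0.30 in 4 of the 6 fits that lost its call, 0.29 with quantile normalization, 0.28 without the 5 libraries and 0.268 to 0.335 with 1 library left out. Of other single-gene values, 412 kept direction and side of the threshold, 22 lost and 7 gained their call, and 1 changed sign. The spiny covariate and the 5 libraries were chosen after seeing the data, and the cause of these shifts was not tested.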
